A study of Macaca mulatta with 13 samples.

Results

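Dividing B cells of the colon of rhesus macaques (Macaca mulatta) were selected by their RNA. A cell counted where MS4A1 and CD79A, 2 genes of B cells, together had at least 2 unique molecular identifiers (UMIs, each marking 1 captured RNA molecule). That sum had to exceed the UMIs of the T cell genes CD3D, CD3E and CD3G, and JCHAIN, an antibody gene of plasma cells, had to be under 1% of the cell's UMIs. MKI67 and TOP2A, which dividing cells make, had to reach 2 UMIs together. This found 698 dividing cells among 4241 B cells of the gate and 20567 cells in all. The B cells of the gate with neither gene detected, 3234 cells, are called non-dividing here, and 309 cells with a single UMI belong to neither kind.

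The series measured single-cell RNA in colon leukocytes of animals with graft-versus-host disease (GVHD) of the acute kind, an attack of donor T cells on a transplant recipient, and of controls. Its labels name 4 host fractions, 2 donor fractions and 3 samples of host and donor cells combined, all after allogeneic haematopoietic cell transplantation, and 4 untransplanted healthy controls. Cells were sorted as viable and positive for CD45, a leukocyte surface protein, and lacked the antibody stain given into the blood vessels, which marks blood cells. In part of the GVHD samples, host and donor cells were parted in the sort by the MHC class I molecule MAMU-A001. No age, sex or conditioning of the animals is given in the sources used here. Each cell's barcode carries the number of its library, and no label ties a number to a sample. If the numbers ran in the order of the labels, libraries 3, 8, 9 and 11, which hold 695 of the 698 dividing cells, would be the 4 healthy controls. This is an inference that no label states, so no group was formed, the libraries stay unassigned and no p-value is given. The other 3 dividing cells lay in library 2 (2 cells) and library 10 (1 cell).

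B cells that meet antigen in a follicle can form a germinal centre, where they alternate between 2 zones. In the dark zone they divide quickly and mutate their antibody genes, and in the light zone they test the new receptor and present antigen to helper T cells. The colon holds such centres in its lymphoid follicles. A dividing cell first copies its DNA in S phase, with helicases, polymerases and enzymes that make nucleotides, and then parts its chromosomes in mitosis, with spindle motors, kinetochore proteins and mitotic kinases.

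The libraries held between 3128386 and 19655788 UMIs. Libraries 4 and 6 shared 5323 barcodes, and library 4 was left out. Library 3 shared no barcode with libraries 8, 9 and 11, which shared between 2 and 6 with each other, and no dividing cell shared its barcode with another. Library 3 thus belongs to another barcode set, so that barcode set and library cannot be told apart in it. It also stood apart in RNA. Of 4201 genes measured, with a mean of at least 25 CPM (UMIs of a gene scaled to the total of the same cells) over the 4 libraries and both kinds of cell, 51 (1.21%) were at least 2-fold above and 776 (18.5%) at least 2-fold below all 3 other libraries in dividing cells. Values of library 3 are therefore given beside those of the others throughout.

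The selected cells had RNA of B cells, next to none of myeloid and NK cells, and some of T and plasma cells. All 7 B cell markers were detected in each library. CD79B, the partner chain of CD79A in the antigen receptor, was no part of the rule, and had 1468, 1057, 851 and 1086 CPM in dividing cells of libraries 3, 8, 9 and 11, against 2262, 948, 913 and 1567 CPM in non-dividing cells. The 8 T cell markers summed to 186, 95.9, 123 and 292 CPM in dividing cells and to 302, 174, 211 and 325 CPM in non-dividing cells, against 2147 to 3970 CPM in cells with more CD3 than B cell UMIs, called T cells here. CD3E was at 0 in dividing cells of library 8. A CD3 UMI was found in 39.7%, 31.6%, 38.7% and 65.9% of dividing cells, against 39.3%, 28.3%, 32.1% and 37.3% of non-dividing cells. Dividing cells were deeper, as given below, so these shares are not at like depth. B cells were also thinned to a common number of UMIs, with shallower cells left out. The shares were then 27.7%, 15.4%, 20.6% and 36.5% of dividing cells, against 32.6%, 25%, 29.6% and 35.6% of non-dividing cells. The exact binomial intervals of both kinds overlapped in each library. The 7 myeloid markers summed to at most 5.29 CPM in dividing cells of any library, against 10.0 to 71.3 CPM in non-dividing cells. The 7 plasma cell markers, JCHAIN among them, summed to 948, 1135, 766 and 1147 CPM in dividing cells, against 1330, 899, 571 and 1228 CPM in non-dividing cells. They summed to 33383 to 71295 CPM in cells with JCHAIN at 1% or more and no CD3 UMI, for which no B cell gene was required. Dividing cells were above non-dividing cells in libraries 8 and 9 and below them in libraries 3 and 11. The 4 NK cell markers summed to at most 17.4 CPM in dividing cells, against 5.76 to 37.2 CPM in non-dividing cells. The 3 matched epithelial markers summed to 0.434, 2.28, 7.65 and 28.3 CPM in dividing cells, against 1.14, 0.443, 3.42 and 0.525 CPM in non-dividing cells, so library 11 had the most in its dividing cells.

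The genes of the rule are given as a description, since they chose the cells. MKI67 had 325, 811, 698 and 871 CPM in dividing cells of libraries 3, 8, 9 and 11 and TOP2A 294, 297, 437 and 653 CPM, and both are 0 in non-dividing cells by definition. Library 3 had the lowest MKI67. MS4A1 had 895, 881, 1747 and 1111 CPM in dividing cells, against 1390, 1103, 1716 and 1501 CPM in non-dividing cells. CD79A had 1149.6, 368, 411 and 447 CPM in dividing cells, against 1325, 453, 462 and 669 CPM in non-dividing cells. JCHAIN had 562, 856, 481 and 774 CPM in dividing cells, against 845, 569, 332 and 763 CPM in non-dividing cells. CD3D had 125, 66.2, 82.4 and 203 CPM in dividing cells, against 190.0, 105, 125 and 188 CPM in non-dividing cells, and CD3G 17.4, 22.8, 18.2 and 50.7 CPM against 31.6, 30.6, 42.4 and 47.7 CPM.

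Dividing cells were a sizeable part of the B cells in all 4 libraries. They made up 20.6% in library 3 (343 of 1669 cells; exact binomial 95% interval 18.6 to 22.6), 7.84% in library 8 (57 of 727; 5.99 to 10.0), 15.8% in library 9 (163 of 1034; 13.6 to 18.1) and 19.4% in library 11 (132 of 682; 16.5 to 22.5). These intervals cover counting error only. Library 8 had the lowest share. Library 12 had 0 dividing cells among 44 B cells and library 2 had 2 among 65. Libraries 1, 5 and 13 had 0 among 5, 9 and 4, and libraries 6 and 7 had no B cell of the gate.

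The share depended on depth and on how division was read. Dividing cells had a median of 5985, 6668, 8988 and 10122 UMIs in libraries 3, 8, 9 and 11, against 3325, 3081, 3113.5 and 3024 UMIs in non-dividing cells. They also had a median of 1643, 2299, 2608 and 2849.5 genes, against 1051, 1149, 1115 and 1129.5 in non-dividing cells. A deeper cell reaches 2 UMIs more easily, so B cells with at least 2500 UMIs were also thinned to 2500 UMIs. Shallower cells were left out, so 1453 of 1669, 562 of 727, 806 of 1034 and 528 of 682 cells remained. Those left out held 187, 155, 214 and 142 non-dividing cells, against 15, 5, 8 and 6 dividing cells. The share was then 11.4%, 6.58%, 13.2% and 15.9%, and library 3 stood between libraries 8 and 9. A measure chosen after seeing the data counted cells with at least 10 UMIs of the replication and mitosis genes described below, after thinning to 3000 UMIs. It left out 496, 318, 397 and 264 B cells with fewer than 3000 UMIs. It gave 59.0% in library 3 (692 of 1173 cells), 18.3% in library 8, 31.7% in library 9 and 36.1% in library 11. Library 3 was highest by this measure. Of the cells it counted, 36.3%, 24.0%, 17.8% and 15.2% had no UMI of MKI67 or TOP2A. In the same cells MKI67 and TOP2A gave 2.71 UMIs per 100 UMIs of the lists in library 3, against 6.68, 7.40 and 10.2 in libraries 8, 9 and 11.

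**Figure D1:**
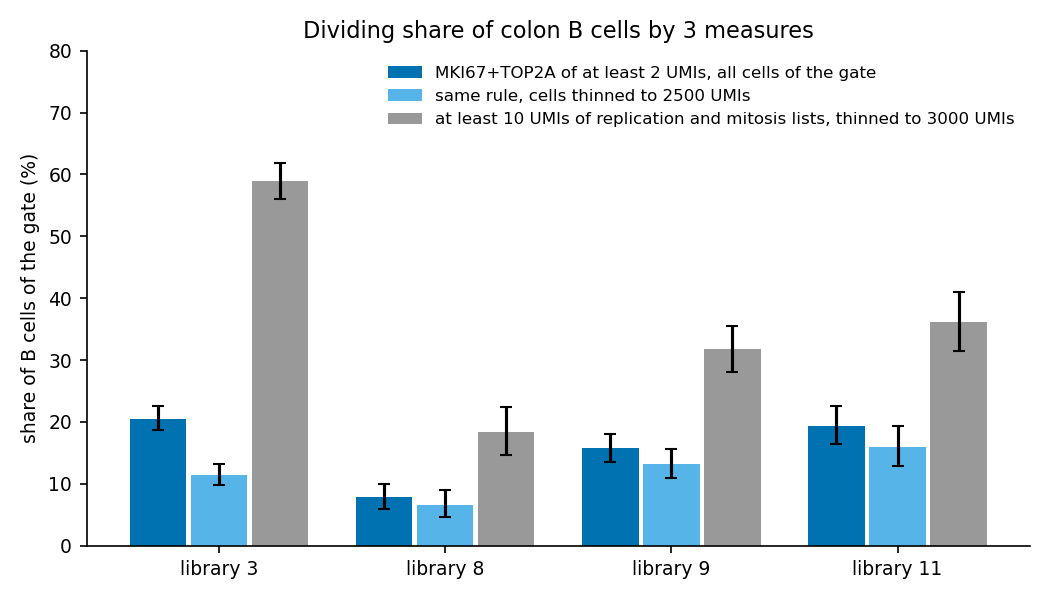
Share of B cells of the gate (y axis, %) counted as dividing in libraries 3, 8, 9 and 11 (x axis) by 3 measures, with exact binomial 95% intervals as bars. Library 8 is lowest by each measure, while library 3 moves from 11.4% in thinned cells to 59.0% when the replication and mitosis lists are read. Both thinned measures leave out cells below the depth thinned to.

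The non-dividing cells of library 3 thus held much division RNA. Among non-dividing cells thinned to 3000 UMIs, 35.2% had at least 10 UMIs of the lists in library 3, against 5.93%, 7.62% and 7.36% in libraries 8, 9 and 11. The median ratios of the mitosis and replication lists, given below, were lowest in library 3, although PLK1 and AURKB had their largest ratio there, and the part of these cells in the list medians was not tested. Around the threshold, over the 4 libraries, the 154 cells with 2 UMIs of MKI67 and TOP2A had 7494 CPM of the mitosis list, against 4368 CPM in the 303 cells with 1 UMI and 1276 CPM in the cells with none. The replication list had 4113 CPM at 2 UMIs, 2886 CPM at 1 UMI and 1091 CPM at none, and the list of resting B cell genes 1365, 1913 and 4365 CPM. The cells at 1 UMI lay between these classes in all 3 lists, also within each library. Library 3 held 112 of the 154 cells, 169 of the 303 and 1157 of the 3114 with none, so the mix of libraries differs between classes. At 2 UMIs and at 1 UMI, the mitosis list had 8825 and 6372 CPM in library 3 and 2610 and 2568 CPM in library 8. It had 4596 and 1833 CPM in library 9 and 3282 and 1371 CPM in library 11.

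**Figure D2:**
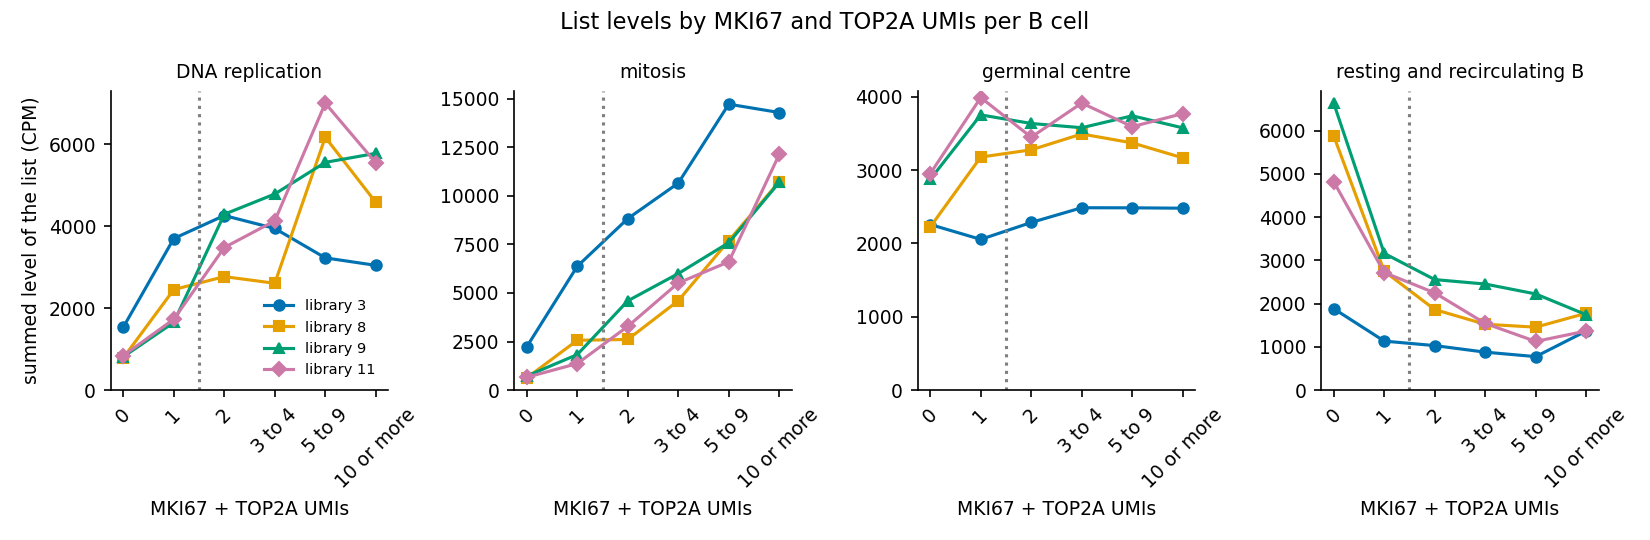
Summed level of 4 gene lists (y axes, CPM) in B cells grouped by their UMIs of MKI67 and TOP2A (x axes), for libraries 3, 8, 9 and 11; the dotted line marks the threshold of 2 UMIs. The mitosis list is higher and the resting list lower on the right of the line, and germinal centre RNA changes less.

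Levels were compared within each library as log2 ratios of CPM plus 10, dividing over non-dividing, and a gene was called where it differed at least 2-fold in the same direction in all 4 libraries. The cells were chosen by division RNA, so these ratios describe them and are no test. Outside the rule genes, 146 of 4201 genes (3.48%) were higher and 26 (0.619%) were lower in dividing cells. The median of all genes was 0.20. Scaling by the trimmed mean of M-values (TMM) put that median at 0.01, a shift of -0.19, and gave 127 higher and 44 lower genes, so that 74.3% of calls were higher, against 84.9% by total UMIs. Without library 3 there were 298 higher and 100 lower genes.

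Mitosis genes made the clearest difference. All 33 measured members of the mitosis list, of 39 names, were higher at least 2-fold in every library, beside 3.48% of all genes, with a median log2 ratio of 3.26 over the members. The median was 2.38 in library 3, 3.08 in library 8, 3.21 in library 9 and 3.53 in library 11. Summed over the list, dividing cells had 11666, 8048, 9131 and 10290.5 CPM, against 2234, 632, 729.6 and 665 CPM in non-dividing cells. Library 3 had both the highest sum in dividing cells and the highest in non-dividing cells.

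CENPE (ENSMMUG00000019089), a motor that moves chromosomes along the spindle, had the largest difference when genes were ranked by their lowest library. It had 171, 128, 145 and 178 CPM in dividing cells of libraries 3, 8, 9 and 11, against 9.77, 3.54, 2.73 and 3.15 CPM in non-dividing cells. Every dividing value lay above every non-dividing one, and the log2 ratios ran from 3.19 to 3.84. BIRC5 (survivin, of the chromosomal passenger complex) had 369, 212, 237 and 361 CPM in dividing cells, against 38.4, 0.886, 1.37 and 2.62 CPM in non-dividing cells. Its ratio was 2.97 in library 3 and 4.35 to 4.88 in the others. AURKB, the kinase of the same complex, had 265, 54.8, 85.9 and 96.7 CPM in dividing cells, against 18.0, 0, 0.342 and 1.05 CPM in non-dividing cells.

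Kinases and their partners followed. PLK1, a kinase that starts and guides mitosis, had 238, 70.8, 80.002 and 113 CPM in dividing cells, against 6.82, 0.886, 0 and 2.10 CPM in non-dividing cells. CDK1, the kinase that drives entry into mitosis, had 243, 112, 217 and 211 CPM in dividing cells, against 25.002, 3.101, 5.81 and 6.82 CPM in non-dividing cells. CKS1B, a small partner of these kinases, had 906, 368, 422 and 353 CPM in dividing cells, against 144, 30.1, 32.8 and 18.9 CPM in non-dividing cells. Library 3 held the highest level of all 3 genes in both kinds of cell.

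Kinetochore and spindle genes had like patterns. The kinetochore genes CENPF, NUF2 and ZWINT had median log2 ratios of 3.44, 3.62 and 3.30. SGO2, which protects the cohesion of sister chromatids, had 160, 84.5, 91.8 and 140 CPM in dividing cells, against 13.9, 0.886, 0.683 and 0.525 CPM in non-dividing cells. ASPM, a spindle pole protein, had 86.0, 167, 162 and 208 CPM in dividing cells, against 4.09, 0, 1.37 and 1.57 CPM in non-dividing cells, and here library 3 was lowest among dividing cells. HMMR, a microtubule-binding protein, had a median ratio of 3.28, CDCA3, a trigger of mitotic entry, 3.35 and NUSAP1, which bundles spindle fibres, 3.78. The smallest median ratios of the list were those of CKS2 (1.58) and CKAP2 (1.49).

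Replication genes were higher too, but less evenly over the libraries. Of 32 names, 24 were measured, 23 were higher in every library, as were 44.4% of all genes, and 8 at least 2-fold in every library, which were MCM7, PCNA, TYMS, RRM1, RRM2, CLSPN, DUT and DNMT1. The median log2 ratio of the list was 0.92 in library 3, against 2.20, 2.23 and 2.18 in libraries 8, 9 and 11. RRM2 (ENSMMUG00000002057), a subunit of the enzyme that makes deoxynucleotides, had 504, 285, 346 and 425 CPM in dividing cells, against 119, 7.09, 6.15 and 10.5 CPM in non-dividing cells. Its level in non-dividing cells was over 10 times higher in library 3 than in the others. TYMS, which makes the thymidine building block, had 31.3, 70.8, 295 and 221 CPM in dividing cells, against 5.0003, 2.21, 9.56 and 4.20 CPM in non-dividing cells. CLSPN, which signals stalled replication forks, had 53.4, 114, 109 and 131 CPM in dividing cells, against 16.4, 3.101, 1.37 and 5.77 CPM in non-dividing cells.

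The low end of the replication list was not uniform either. SLBP, which binds the stem-loop of histone messages, had 1.30, 114, 97.6 and 102 CPM in dividing cells, against 1.36, 33.7, 38.3 and 34.1 CPM in non-dividing cells, and was nearly undetected in library 3 in both kinds. RPA2, a protein that coats single-stranded DNA, had 91.2, 75.4, 98.2 and 82.9 CPM in dividing cells, against 56.4, 53.6, 70.4 and 47.2 CPM in non-dividing cells. Members of the list that were not measured, such as CDC6 and UHRF1, had means under 25 CPM.

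Histone, chromatin and tubulin genes also stood higher. All 17 matched members of the chromatin list were measured and 11 were higher at least 2-fold in every library, with a median log2 ratio of 1.67. STMN1, which regulates microtubules, had 3157, 2174, 2236 and 2487 CPM in dividing cells, against 764, 116, 133 and 170.5 CPM in non-dividing cells. TUBB, a tubulin, had 2643, 1064, 1382 and 1624 CPM in dividing cells, against 642, 98.8, 119 and 187 CPM in non-dividing cells. H2AFZ, a histone variant, had 4835, 2855, 3554 and 3283 CPM in dividing cells, against 1669, 418, 499 and 466 CPM in non-dividing cells. H4C3, a histone H4 gene that is copied with DNA, had 536, 1827, 2084 and 3028 CPM in dividing cells, against 65.7, 83.3, 55.3 and 127 CPM in non-dividing cells. Library 3 had the lowest H4C3 among dividing cells, and histone genes have near-identical copies, so reads may be split among them. The replacement histone H3F3A had a median ratio of 0.70.

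Of 11 measured cyclins, kinases and inhibitors, 5 were higher at least 2-fold in every library. CDKN3, a phosphatase that acts on CDK1, had 278, 164, 201 and 209 CPM in dividing cells, against 35.0, 3.54, 4.10 and 7.87 CPM in non-dividing cells. E2F8, a repressor of the E2F family, had 18.2, 68.5, 62.4 and 53.3 CPM in dividing cells, against 2.73, 0.886, 1.02 and 1.57 CPM in non-dividing cells, and MYBL2, an activator of mitosis genes, had a median ratio of 2.11. CDKN1B, the p27 inhibitor known from resting cells, had 18.7, 57.1, 54.1 and 55.9 CPM in dividing cells, against 28.6, 110.7, 142 and 126 CPM in non-dividing cells. It was lower in every library but under 2-fold in libraries 3 and 8. RB1, which restrains entry into S phase, had a median ratio of 0.07, and the sign turned with TMM scaling.

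DNA repair genes were in part higher. Of 16 measured, 5 were higher at least 2-fold in every library, among them BRCA1, BRCA2, RAD51AP1 and LIG1, and the list median was 1.16. RAD51AP1, a protein of homologous recombination, had 109, 54.8, 90.6 and 128 CPM in dividing cells, against 13.6, 1.77, 2.05 and 8.92 CPM in non-dividing cells. LIG1, the ligase that joins newly copied fragments, had 105, 132, 172 and 157 CPM in dividing cells, against 38.6, 21.3, 26.98 and 27.3 CPM in non-dividing cells. BRCA2, a protein of the same repair path, had a median ratio of 2.63. The damage response genes ATM and TP53BP1 had median ratios of -0.71 and -0.31, and neither went one way in all libraries.

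**Figure D3:**
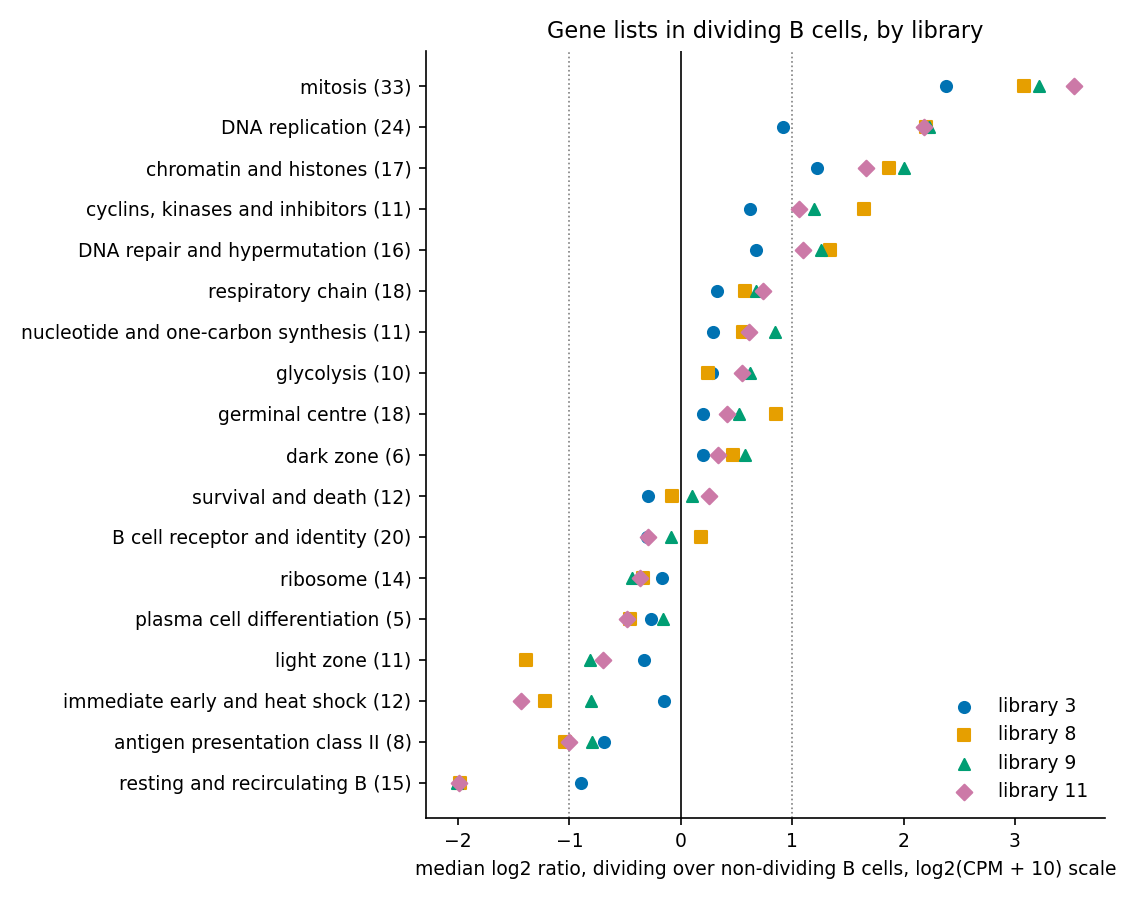
Median log2 ratio of dividing over non-dividing B cells on the log2(CPM + 10) scale (x axis) for each gene list (rows, with the number of measured members), 1 symbol per library; dotted lines mark a 2-fold difference. Mitosis and replication lists lie far on the right and resting B cell and class II lists on the left, with library 3 nearer to 0 in most of them.

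No germinal centre gene was past 2-fold in every library, and the list median differed by library. Of 18 measured, 10 were higher in every library, beside 44.4% of all genes, and 2 lower, beside 18.5%. The list median was 0.40, against 0.20 over all genes. In libraries 3, 8, 9 and 11 it was 0.20, 0.85, 0.52 and 0.41, against 0.10, 0.23, 0.25 and 0.22 over all genes. HMCES, which shields abasic sites in DNA, had 453, 292, 311 and 380 CPM in dividing cells, against 285, 75.7, 109 and 117 CPM in non-dividing cells. MYBL1, a transcription factor of germinal centre B cells, had 4.34, 185, 138 and 138 CPM in dividing cells, against 3.64, 35.4, 43.4 and 43.5 CPM in non-dividing cells, and library 3 had next to none in either kind. GCSAM, a germinal centre signalling protein, had 60.0, 57.1, 40.0 and 83.6 CPM in dividing cells, against 29.5, 13.3, 12.6 and 38.3 CPM in non-dividing cells. CD38, a surface enzyme, had 11.7, 11.4, 13.5 and 7.24 CPM in dividing cells, against 23.2, 47.4, 60.1 and 76.1 CPM in non-dividing cells, and VPREB3, a surrogate light chain gene, had a median ratio of -0.34.

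Detection in cells thinned to 2500 UMIs showed how many cells carried such RNA. Any of 7 genes used to mark germinal centre cells, among them BCL6, RGS13 and GCSAM, was found in 54.3%, 55.8%, 56.8% and 68.3% of dividing cells in libraries 3, 8, 9 and 11, against 52.6%, 24.6%, 29.1% and 39.7% of non-dividing cells. In T cells of the same libraries it was 10.5%, 2.96%, 5.32% and 7.10%, at median depths of 2652.5 to 3076 UMIs before thinning. Without thinning it was 83.4%, 87.7%, 89.0% and 97.0% of dividing cells, against 63.4%, 25.4%, 33.0% and 42.8% of non-dividing cells. In library 3 the intervals of both kinds overlapped (48.7 to 59.8 and 49.4 to 55.8), while in the others dividing cells lay above. Of the 7 genes, ELL3 was found most often in library 3. ELL3 was in 38.1%, 25%, 27.1% and 28.6% of thinned dividing cells, against 41.8%, 12.8%, 16.8% and 28.1% of non-dividing cells. In T cells ELL3 was in 5.88%, 0.870%, 0.554% and 0.798%. RGS13, a brake on chemokine signalling, was found in 6.40%, 26.9%, 25.8% and 21.4% of thinned dividing cells, against 5.77%, 8.06%, 12.0% and 9.44% of non-dividing cells and at most 0.522% of T cells. BCL6, the master repressor of the germinal centre programme, was found in 11.6%, 19.2%, 15.5% and 32.5% of dividing cells, against 6.19%, 8.47%, 5.65% and 13.3% of non-dividing cells and 1.74% to 6.54% of T cells.

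The 6 measured dark zone genes had a median log2 ratio of 0.36, against 0.20 over all genes. The median was 0.20, 0.47, 0.57 and 0.33 in libraries 3, 8, 9 and 11. Of the 6 genes, 3 were higher in every library, beside 44.4% of all genes, none of them 2-fold in all 4. POLH, the error-prone polymerase of somatic hypermutation, had 46.5, 73.1, 57.1 and 106 CPM in dividing cells, against 18.6, 20.8, 29.7 and 34.1 CPM in non-dividing cells. TCF3 had 87.8, 194, 146 and 138 CPM in dividing cells, against 50.5, 53.2, 59.1 and 91.3 CPM in non-dividing cells. CXCR4, the chemokine receptor that holds cells in the dark zone, had 569.6, 260.3, 204 and 136 CPM in dividing cells, against 631, 178, 177 and 198 CPM in non-dividing cells, with no common direction. FOXO1, a dark zone factor, had a median ratio of -0.20.

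Of 11 measured light zone genes, 9 were lower in dividing cells in every library, beside 18.5% of all genes, none at least 2-fold in all 4, and the list median was -0.83. The median was -0.33 in library 3, -1.39 in library 8, -0.82 in library 9 and -0.70 in library 11. CD83, a surface marker of light zone cells, had 393, 253, 649 and 257 CPM in dividing cells, against 776, 1158, 1445 and 695 CPM in non-dividing cells. NFKBIA, an inhibitor that NF-kappaB signalling induces, had 79.5, 461, 787 and 323 CPM in dividing cells, against 90.7, 1735, 1812 and 772 CPM in non-dividing cells. ICAM1 and CD72 had median ratios of 0.22 and -0.16, with no common direction.

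Genes of resting and recirculating B cells were the lowest list. Of 15 measured, 13 were lower in every library and 5 at least 2-fold in every library, beside 0.619% of all genes, with a list median of -1.72. Among these 5 were GPR183, CD69, FCMR and CD44. GPR183 (ENSMMUG00000012338), an oxysterol receptor that draws B cells to the outer follicle, had 23.9, 22.8, 26.5 and 11.8 CPM in dividing cells, against 100.2, 373, 247 and 196 CPM in non-dividing cells. FCMR, a receptor for IgM, had 5.21, 6.85, 8.82 and 12.5 CPM in dividing cells, against 23.0, 159.9, 115 and 219 CPM in non-dividing cells. CD44, an adhesion receptor, had 21.3, 16.0, 24.7 and 13.2 CPM in dividing cells, against 115, 286, 205 and 83.9 CPM in non-dividing cells. In these 3 genes no dividing value reached any non-dividing one.

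Homing receptors were also found in fewer dividing cells at like depth. CCR7, which guides cells to lymph nodes, was found in 6.40%, 0%, 12.3% and 0% of thinned dividing cells, against 14.6%, 36.2%, 37.7% and 12.2% of non-dividing cells. The counts of 0 were among 52 cells in library 8 and 126 in library 11, where unthinned shares were 7.02% and 3.79% against 40.1% and 14.3%. FCER2, the low-affinity IgE receptor of resting follicular B cells, was found in 5.18%, 1.92%, 10.97% and 16.7% of dividing cells, against 6.19%, 16.5%, 19.3% and 30.0% of non-dividing cells and at most 1.33% of T cells. The exact intervals of both kinds overlapped in library 3 and in library 9 (6.52 to 17.0 and 16.2 to 22.7). CXCR5, which leads B cells into follicles, had 111, 59.4, 85.9 and 57.9 CPM in dividing cells, against 216, 110.3, 134 and 106 CPM in non-dividing cells. ITGB1 and IL4R had median ratios of 0.38 and 0.27.

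**Figure D4:**
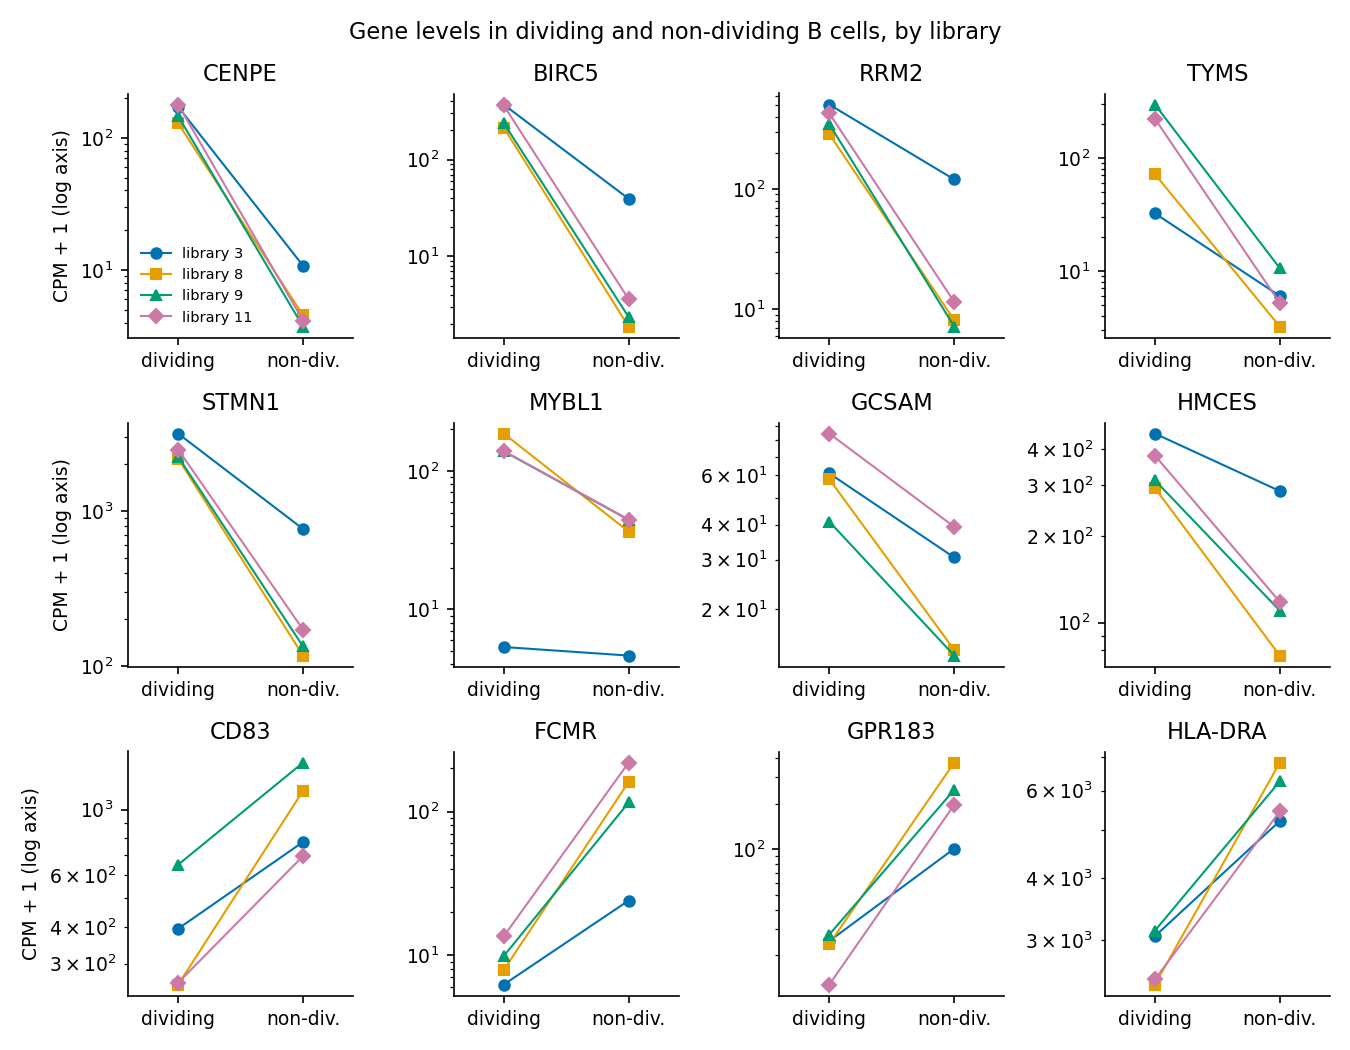
Levels of 12 genes (y axes, CPM plus 1 on a log axis) in dividing cells (left of each panel) and non-dividing cells (right), with 1 line per library. Lines of division genes drop to the right and those of CD83, FCMR, GPR183 and HLA-DRA climb, while library 3 has next to no MYBL1 in either kind.

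Other genes with the steepest drop belonged to no single function. ANXA1, a phospholipid-binding protein, had 16.9, 2.28, 18.8 and 14.5 CPM in dividing cells, against 67.5, 247, 286 and 249 CPM in non-dividing cells. GPR65, a proton-sensing receptor, had 23.9, 41.1, 51.8 and 25.001 CPM in dividing cells, against 93.2, 322, 378 and 147 CPM in non-dividing cells. CD52, a surface glycoprotein of lymphocytes, had 456, 283, 286 and 336 CPM in dividing cells, against 1196, 1499, 1269 and 1373 CPM in non-dividing cells. S100A4, SAT2, ACP5 and TSPAN31 had median ratios of -1.36, -1.32, -1.40 and -1.32. The 26 lower genes also held GZMB and CCL5, which T and NK cells make and which are named here after their values were seen. GZMB had 1.74, 0, 0.588 and 0 CPM in dividing cells, against 83.4, 82.0, 12.6 and 26.8 CPM in non-dividing cells. CCL5 had 10.4, 9.13, 11.8 and 9.21 CPM in dividing cells, against 31.6, 168, 172 and 70.3 CPM in non-dividing cells. The summed T cell markers were also lower in dividing cells in every library, although CD3D and CD3G were higher in those of library 11, and their part in these genes was not tested. In a stricter gate, without any CD3 UMI and with a higher minimum of MS4A1 and CD79A UMIs, 156 genes were higher and 27 lower. The values of GZMB and CCL5 in that gate are not given here.

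Most genes of class II antigen presentation were lower. Of 8 measured genes, 7 were lower in every library, beside 18.5% of all genes, and the list summed to 11772, 7349, 9682 and 7228 CPM in dividing cells, against 19175, 17396, 17681 and 14837 CPM in non-dividing cells. MAMU-DOB, a chain of the molecule that limits peptide loading in B cells, was the member past 2-fold in every library, with 43.4, 66.2, 41.8 and 85.5 CPM in dividing cells, against 118, 181, 146 and 229 CPM in non-dividing cells. HLA-DRA, the alpha chain of the class II molecule DR, had 3051, 2437, 3129.5 and 2496 CPM in dividing cells, against 5207, 6829, 6261 and 5445 CPM in non-dividing cells. CIITA, the switch of class II genes, had a median ratio of -0.15, IFI30 -0.41 and MAMU-DMA -0.46, although the symbol of MAMU-DMA differs between the file and the gene table.

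Genes of the B cell receptor and of B cell identity differed less. Of 20 measured receptor and identity genes, 1 was higher in every library, beside 44.4% of all genes, and 5 were lower, beside 18.5%, none at least 2-fold in all. The list median was -0.18. PLCG2 and SYK, enzymes of receptor signalling, had median ratios of 0.30 and 0.21. BANK1, an adaptor of receptor signalling, had 10.4, 68.5, 55.3 and 66.4 CPM in dividing cells, against 17.3, 322, 241 and 269 CPM in non-dividing cells, and CD37, a tetraspanin, had a median ratio of -0.88. Plasma cell differentiation genes had a median of -0.39 over 5 measured members. IRF4, a factor that drives plasma cell fate, had 21.7, 36.5, 46.5 and 23.0 CPM in dividing cells, against 27.5, 109, 99.7 and 43.5 CPM in non-dividing cells, while SEC11C, of the signal peptidase, had a median ratio of 0.49.

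Antibody genes are given by their values alone. IGHM, the heavy chain of IgM, had 3118, 2165, 864 and 1579 CPM in dividing cells, against 3627, 1348, 952 and 2277 CPM in non-dividing cells. T cells had 4387, 9208, 63.8 and 4258 CPM of IGHM, but also 5636, 32240, 462 and 9845 CPM of JCHAIN, for which they had no limit, so they are no reference free of plasma cell RNA in libraries 3, 8 and 11. In library 9, where their JCHAIN was lowest, dividing cells had more IGHM than T cells. IGHA2, a heavy chain of IgA, had 1072, 1747, 1272 and 1729.7 CPM in dividing cells, against 1328, 3151, 944 and 1203 CPM in non-dividing cells and 11063, 65422, 644 and 17196 CPM in T cells.

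The respiratory chain, glycolysis and nucleotide synthesis lists had medians above the 0.20 of all genes, without a member past 2-fold in every library. Respiratory chain genes had a median of 0.59, with 16 of 18 measured members higher in every library, beside 44.4% of all genes. COX5A, a subunit of cytochrome oxidase, had 100.4, 872, 863 and 1117 CPM in dividing cells, against 63.4, 324, 396 and 515 CPM in non-dividing cells. Glycolysis genes had a median of 0.44 over 10 measured members. GAPDH had 2819, 1372, 2477 and 2012 CPM in dividing cells, against 2085, 711, 1049.97 and 814 CPM in non-dividing cells, and ENO1 had a median ratio of 1.06. SLC2A3, a glucose transporter, had 46.9, 66.2, 77.6 and 90.8 CPM in dividing cells, against 92.5, 154, 229 and 234 CPM in non-dividing cells. Nucleotide and one-carbon synthesis had a median of 0.58 over 11 members, with GMPS at 1.32, MTHFD1 at 1.13 and SHMT2 at 0.85. Of these members 8 were higher in every library and 1, NME1, was lower. The summed list was lower in dividing cells of library 8 (1980 against 2236 CPM) and higher in those of the other libraries. Against the non-dividing cells with germinal centre RNA described below, respiratory, glycolysis and nucleotide medians were 0.28, 0.50 and 0.33, beside 0.04 over all genes. Ribosomal protein genes had a median of -0.36 over 14 members, and 11 were lower in every library, beside 18.5% of all genes.

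Survival and stress genes went both ways. The survival and death list had a median of 0.14 over 12 measured members, and -0.08 with TMM scaling, so it has no firm direction. BCL2, which protects resting B cells from death, had 1.74, 27.4, 27.6 and 5.92 CPM in dividing cells, against 12.3, 179, 187 and 67.7 CPM in non-dividing cells. BCL2A1, a relative of BCL2 that NF-kappaB induces, had 198, 183, 384 and 153 CPM in dividing cells, against 447, 589.6, 946 and 304 CPM in non-dividing cells. BID and BIK, which promote death, had median ratios of 0.92 and 0.71. Immediate early and heat shock genes had a median of -0.87 over 12 members, from -1.44 in library 11 to -0.15 in library 3, and ZFP36 and NR4A2 were lower at least 2-fold in every library. FOSB had 119, 171, 184 and 90.1 CPM in dividing cells, against 162, 654, 555 and 366 CPM in non-dividing cells, while HSP90AA1, a chaperone, had a median ratio of 0.95.

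Dividing cells were also set against non-dividing cells that carried germinal centre RNA, and mitosis genes again stood higher. These were non-dividing cells with at least 2 UMIs of the 7 marking genes, 387 in library 3, 77 in library 8, 136 in library 9 and 131 in library 11. They had a median of 3699, 4797, 4874.5 and 4901 UMIs. At least 2-fold in every library, 100 of 4275 measured genes (2.34%) were higher in dividing cells and 2 (0.0468%) lower, the 2 being GPR65 and PLTP, and the median of all genes was 0.04. Of the 146 genes higher against all non-dividing cells, 95 were higher here as well, though both comparisons share the dividing cells. Of 33 mitosis genes 29 were higher, with a median of 2.70, and of 25 replication genes 3 were higher, with a median of 1.53.

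The resting list had a median of -0.67 over 10 measured members in this comparison, against -1.72 over 15 members with all non-dividing cells. The light zone list stood at -0.42 and the class II list at -0.44. All 8 class II genes were lower in every library here, beside 20% of all genes. The germinal centre list stood at -0.17 over 13 members and the dark zone list at -0.08 over 7, with the marking genes left out. The cells set against them were chosen for germinal centre RNA, and the measured members differ from those above, so no direction is read from these medians. GPR183 had 43.6, 61.8, 27.9997 and 40.9 CPM in non-dividing cells with germinal centre RNA, beside the 23.9, 22.8, 26.5 and 11.8 CPM of dividing cells. GPR65 had 63.8, 110.7, 139 and 69.1 CPM in them, and CENPE 10.4, 7.72, 6.9999 and 2.82 CPM. Among non-dividing cells of like depth, with at least the lower quartile of UMIs of the dividing cells, the resting list stood at -0.93 and the class II list at -0.34, and 103 genes were higher and 7 lower.

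Dividing cells differed among themselves in the balance of replication and mitosis RNA. In 635 cells thinned to 3000 UMIs, 25.2% had more replication than mitosis UMIs (21.9 to 28.8). The share was 13.5% in library 3 (10.0 to 17.8), 45.8% in library 8 (31.4 to 60.8), 37.4% in library 9 (29.6 to 45.8) and 32.8% in library 11 (24.6 to 41.9). Library 3 had the lowest share. The intervals cover counting error over cells and do not compare libraries. The replication list holds genes that library 3 nearly lacked, such as SLBP, and their part in its share was not tested. A dividing cell had a median of 11, 12.5, 17 and 14.5 UMIs of the replication list and 33, 18, 21 and 25 of the mitosis list. The rule chose these cells by MKI67 and TOP2A, whose RNA peaks late in the cycle. Within a library the 2 sums ran against each other, with a Spearman correlation across cells of -0.51 in library 3, -0.13 in library 8, -0.19 in library 9 and -0.16 in library 11. This is a description over 318, 48, 147 and 122 cells that share a library and a fixed total of UMIs.

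**Figure D5:**
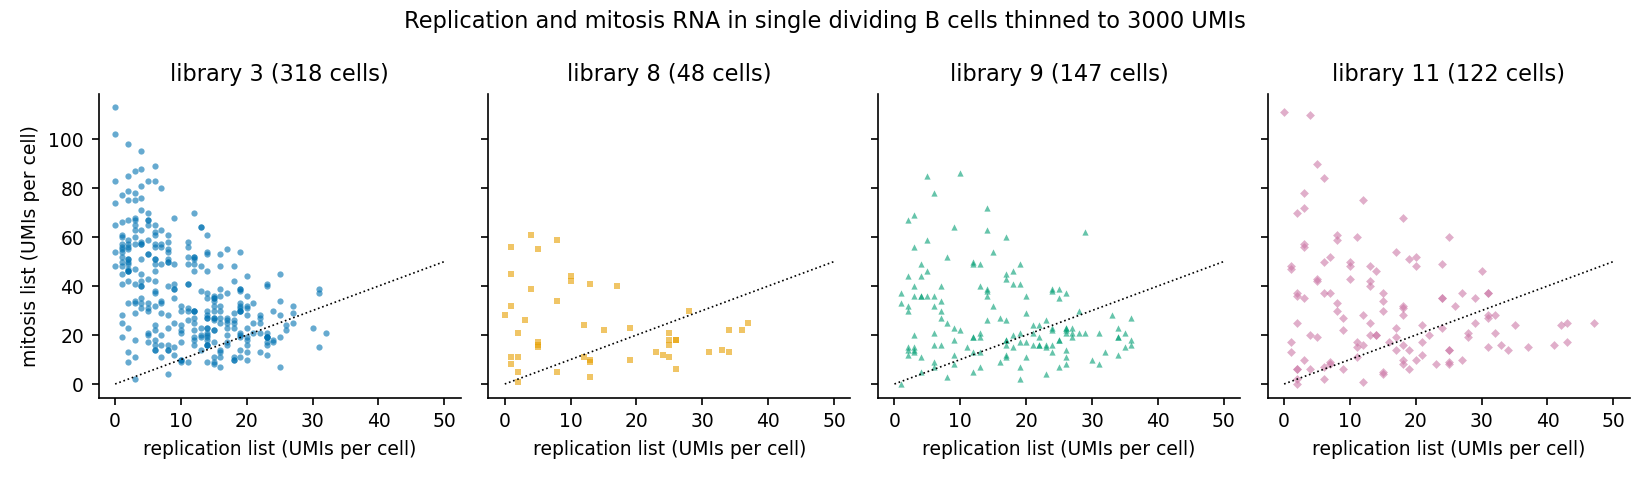
UMIs of the replication list (x axes) and of the mitosis list (y axes) in single dividing B cells thinned to 3000 UMIs, 1 panel per library, with a dotted line where both are equal. In library 3 most cells lie above the line and those with the most mitosis UMIs have few replication UMIs, and 13.5% of its cells lie below it.

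Most genes by which library 3 stood apart in dividing cells stood apart in non-dividing cells too. Of the 51 genes above all 3 other libraries in dividing cells, 41 were also above in non-dividing cells, 80.4% of the 51 and 18.8% of the 218 found there. Of the 776 below, 640 were also below in non-dividing cells, 82.5% of the 776 and 76.2% of the 840 found there. RPL31, a ribosomal protein gene, had 1691 CPM in dividing cells of library 3, against 308, 385 and 263 CPM in libraries 8, 9 and 11. The other genes furthest above were RPL14, AKR1B1, SLC25A6 and UBB. CDV3 had 4.78 CPM in dividing cells of library 3, against 557, 622 and 514 CPM in the others, and SRRM2, a splicing factor, had 12.2 CPM against 628, 549 and 501 CPM. LTB, a cytokine that shapes lymphoid follicles, had 11.7 CPM against 530, 388 and 661 CPM. H1FX, a linker histone, had 3.48 CPM against 269, 284 and 514 CPM.

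HIST1H2AH, a histone H2A gene copied with DNA, was also among the 5 genes furthest below. It had 18.7 CPM in dividing cells of library 3, against 875, 1389 and 1065 CPM in libraries 8, 9 and 11. In non-dividing cells it had 1.82 CPM in library 3, against 35.0, 24.3 and 45.1 CPM. No gene was at least 2-fold higher in dividing cells in library 3 and at least 2-fold lower in the other 3 libraries, or the reverse. In sign alone, 438 genes had a ratio in library 3 opposite to that in all 3 others.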

How the data were processed

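The authors deposited raw UMI counts per gene and barcode, made with Cell Ranger 3.1.0 per the submitters' processing notes, and a table of the cells they kept. Seurat 3.1 is named there without a role, while no source used here states the genome build. Of 34628 genes, 23811 IDs have a symbol in the file and 695 took one from a table of gene names. The matrix held 57086 barcodes, and 0 columns of other samples were found. Cell selection, summed UMIs per library and CPM were computed with Python 3.11.15, numpy 2.4.6, pandas 2.3.3 and scipy 1.17.1, and TMM factors with edgeR 4.0.16 in R 4.3.3. Ratios used a pseudocount of 10 CPM, and genes needed a mean of 25 CPM. A library entered the comparison with 20 or more dividing and 20 or more non-dividing cells. Thinning drew UMIs without replacement, with seed 7 for the dividing share. The next seeds in turn served detection in cells and the balance of replication and mitosis RNA. Cells with fewer UMIs than the depth thinned to were left out. The calculation was tested on simulated data. No doublet caller was run, so doublets remain.

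Genes named are the 15 with the highest lowest-library ratio, the 10 with the lowest highest-library ratio, 3 high and 2 low members of each list, the rule genes and 5 genes on each side for library 3. Beyond these, called members of a list are named where there are 8 or fewer, except some that are not reported here, and GZMB and CCL5 were named after their values were seen. The members and lists were chosen with earlier results of these data known. All values are per library, with no test, since no library could be assigned to a sample. Depth was 3128386 to 19655788 UMIs per library.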

Additional observations from a re-analysis of the deposited data

Results flagged for a closer look

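Outside the cells described, 17 B-lineage cells with JCHAIN at 1% or more of their UMIs had at least 2 UMIs of MKI67 and TOP2A, among 726 such cells. Library 2 held 6 of them and library 12 held 3. Among barcodes that the authors did not keep, 46 of 1702 B cells of the gate met the rule for dividing cells, of which 13 lay in library 3, 8 in library 8, 18 in library 9 and 7 in library 11. Both lie outside the cells whose RNA levels were compared, and the barcodes not kept entered only the share over all barcodes of at least 500 UMIs. No library could be assigned to the healthy controls that the labels name.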

How the results depend on the processing

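The share of dividing cells, 16.5% over all libraries, was 23.7% with at least 1 UMI of MKI67 and TOP2A, 12.8% with at least 3, 9.05% with no JCHAIN UMI, 12.5% over all barcodes of at least 500 UMIs, 11.4% after thinning and 42.5% by gene lists, the last added after seeing the data. Leaving out 1 library at a time gave 13.8% to 18.2%. The 146 higher genes were 62 with a pseudocount of 50 CPM, 61 with a mean of at least 100 CPM and 1865 with any difference in every library, and 144 to 298 with each library left out. The 26 lower genes were 13 with at least 1 UMI, 7 against cells of like depth, 2 against cells with germinal centre RNA, 59 against cells without it (added after seeing the data), 49 with a pseudocount of 1 CPM, 4 with 50 CPM, 11 with a mean of at least 100 CPM, 44 with TMM scaling and 777 with any difference, and 26 to 100 with each library left out. Library 3 stood apart in 827 genes, and in 268 with a pseudocount of 50 CPM, 275 with a mean of at least 100 CPM and 866 to 927 with another library left out; without library 3 there is no value. The share of cells with more replication RNA, 25.2%, was 20.3% in the stricter gate and 21.5% to 36.9% with each library left out. Without library 8, 9 or 11 there were 155, 148 and 144 higher genes and 26 lower genes each time. Without library 3 there were 298 higher and 100 lower genes. The cause of these and the other shifts was not tested. Of the list medians under all settings, 237 stayed within the limit set for them and 51 moved. Of the values of named genes, 1532 stayed and 226 moved. Against non-dividing cells of like depth, 58 named genes stayed and 52 moved, and 9 list medians stayed and 9 moved. No called direction turned. No analysis paired by sample or replicate number was possible because no library could be assigned to either. The ratios pair both kinds of cell within a library, but division RNA chose the cells, so they carry no test. The promoter motif count was not run, as no promoter sequence was at hand. With 57 dividing cells, library 8 had the fewest of the libraries compared, which limits the precision of its own values.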
